A study of Mus musculus with 4 samples.

Results

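The 42 genes described here drive or restrain the mammalian cell division cycle. They were chosen by gene symbol from the deposited table of 55401 mouse genes and were placed in 4 groups by the step at which they act. There were 9 genes of the G1/S transition, 10 of DNA replication, 20 of mitosis and 3 encoding inhibitors of cyclin-dependent kinases. All 42 passed the filter on low counts, as did 18475 genes in all.

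The data are poly(A) RNA sequencing libraries of mouse heart taken at day 28 after surgery. The Sham group (n = 2) had a thoracotomy without ligation, and the MI group (n = 2) underwent ligation, the operation that cuts off blood flow to part of the heart muscle and so causes a myocardial infarction. The sources used here do not give the strain, age or sex of the mice. The sample labels name only heart, whereas the series description contrasts infarcted tissue with normal left ventricle, so the region taken may differ between the groups. Cyanidin-treated hearts, which the series title names, were not analysed here. Nothing states that the replicates were separate animals, so a p-value here reflects library-to-library spread only, and that spread may be technical.

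Cells enter the cycle when D-type cyclins and their kinases release E2F transcription factors from retinoblastoma proteins. E2F factors then switch on genes for DNA replication, and a later wave of transcription, driven by B-MYB and FOXM1, supplies the proteins of mitosis. Most adult cardiomyocytes no longer divide, whereas fibroblasts, endothelial cells and leukocytes of an injured heart can. In bulk tissue, fewer cells of a type and less RNA per cell cannot be told apart, nor can the cell type that holds a transcript.

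Total estimated counts were 66624106 to 75979320 per library. Low counts piled up at multiples of 4, so that about 4 counts were taken to stand for 1 fragment, and the number of fragments is smaller than the totals by that factor. Summed over 10 cardiomyocyte markers the level was 14924 to 16108 FPKM (fragments per kilobase of transcript, scaled to library size), so that the defining genes of the labelled tissue were present in each library. Libraries of both groups stood apart. MI replicate 1 held lung transcripts: the surfactant gene Sftpc was at 121.81 FPKM and the club cell gene Scgb1a1 at 130.54 there, against 0 and at most 0.11 in the other libraries. Of 9 lung epithelial markers 0 were at 0 in MI replicate 1 and 5 to 7 in each other library, with a summed level of 353 FPKM against 38.2 to 72.3. Outside MI replicate 1 that sum was almost all Hopx (38.09 and 71.43 FPKM in Sham replicates 1 and 2, 66.49 in MI replicate 2). Hopx was at 64.52 FPKM in MI replicate 1. Sham replicate 2 held the most atrial, adipocyte and lymphocyte transcripts (5019, 140 and 34.5 FPKM summed, against at most 2639, 0.43 and 7.25), and Sham replicate 1 the most erythroid and neutrophil transcripts (17627 and 63.9 FPKM, against at most 13516 and 21.0). Outside Sham replicate 2 the atrial sum was almost all Nppa (151.42 FPKM in Sham replicate 1, 2632 and 1855 in MI). The atrial markers Myl7, Sln and Bmp10 were at 1127.51, 121.43 and 57.62 FPKM in Sham replicate 2 and at most 1.2, 0.1 and 0.04 in the other libraries. Of the 8 atrial markers only Nr2f2 was not highest in Sham replicate 2.

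Transcripts of mitosis genes were more abundant in MI than in Sham hearts on average, chiefly through MI replicate 1, while genes of G1/S and replication had differences of both signs and medians near 0. Gene by gene, 0 of the 42 members and 0 of all 18475 genes (0%) reached an adjusted p of 0.05 or less by the quasi-likelihood test of edgeR. At an unadjusted p under 0.05, 5 members were higher in MI, namely E2f1, Mcm6, Mcm7, Rrm2 and Ccnb2, against 7.12% of all genes tested. One member, Cdkn1a, was lower (1 of 42), against 4.51% of all genes. DESeq2 called 0 members at an adjusted p under 0.05, against 2.58% of all genes called higher and 1.49% called lower. At an unadjusted p it had 6 members higher and 1 lower, a looser threshold to which these shares do not apply. The share of all genes at that threshold is not given here, so these counts cannot be read as more or fewer than the background. With limma on log2(FPKM + 1) 7 members were higher and 0 lower at an unadjusted p under 0.05, against 12% and 1.82% of all genes. The MI libraries were both above the Sham libraries, without overlap, for 15 members (35.7%, against 24.9% of all genes) and below both for 3 (7.14%, against 21.9%). The median log2 difference, MI minus Sham, was 0.51 over the 42 members and 0.00 over all genes. By group it was 0.84 for mitosis, 0.15 for replication, 0.09 for G1/S and 0.24 for the inhibitors.

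**Figure D1:**
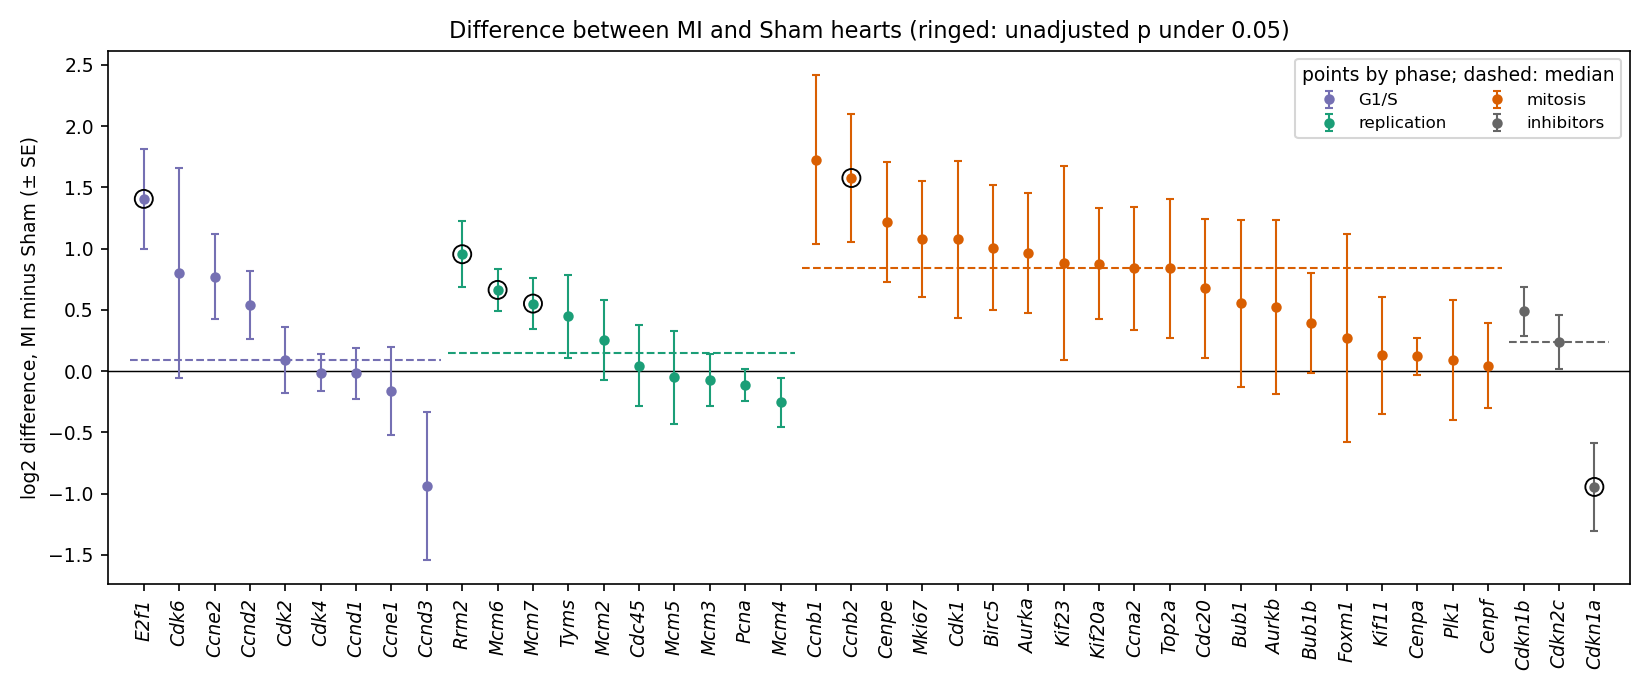
Log2 difference between MI and Sham hearts (y axis) for each cell cycle gene (x axis, grouped by phase and sorted), with bars for the standard error of the edgeR fit (n = 2 libraries a group). Dashed lines are the group medians and rings mark an unadjusted p under 0.05. In this fit, by group and with every library, all 20 mitosis points lie above 0, with a median of 0.84, and 0 of the 42 genes passed an adjusted p under 0.05.

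On a length-scaled basis the cell cycle genes spanned a wide range of levels. Cdkn1a, encoding the kinase inhibitor p21, had the highest mean at 26.8 FPKM over the 4 libraries. The sliding clamp gene Pcna followed at 10.3 FPKM, with Ccnd1 at 9.30, Cdk4 at 8.21 and Ccnd2 at 7.28. The lowest means were those of the mitotic genes Bub1 (0.155 FPKM) and Cenpe (0.122). Among mitosis genes only Cenpa, which encodes the histone variant of centromeres, had a mean above 2 FPKM, at 2.88. The lowest count of any member in any library was 26, for Ccnb1 in Sham replicate 1, above a floor of 12 counts taken to stand for 3 fragments.

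**Figure D2:**
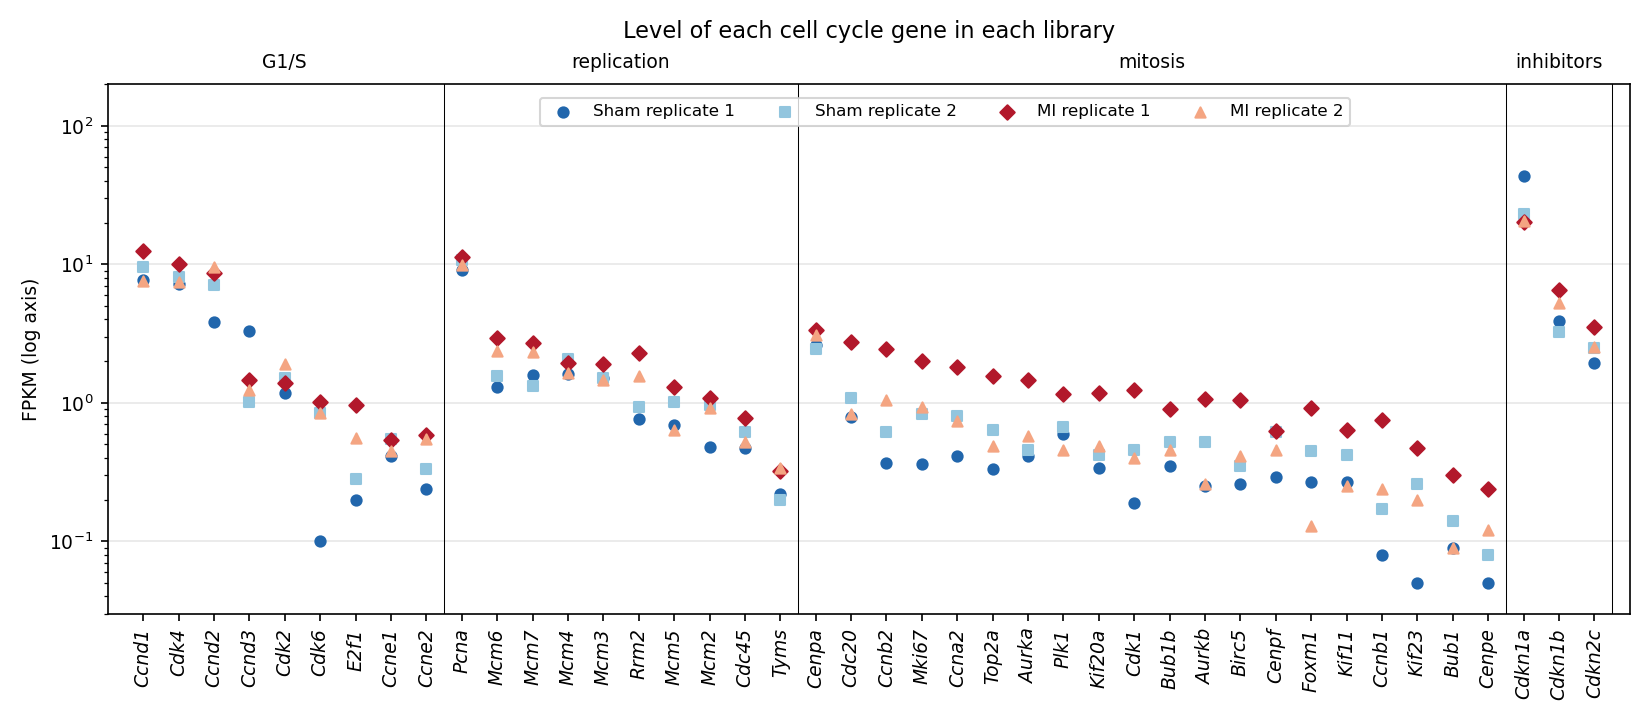
FPKM of each cell cycle gene (x axis, grouped by phase and sorted by mean level) in each of the 4 libraries, on a logarithmic y axis. MI replicate 1 (dark red diamonds) is the highest point for most mitosis genes, while MI replicate 2 lies among or close to the Sham libraries. Cdkn1a is highest in Sham replicate 1, at 43.17 FPKM.

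All 20 mitosis genes had positive differences, from 0.05 to 1.73, in the fit to all libraries by group (with the replicate number as a block Plk1 and Foxm1 were at -0.02 and -0.20). Of the 20, 1 was higher at an unadjusted p under 0.05, where the share of all genes was 7.12%. The MI values were clear of the Sham values, on the higher side, for 7 (35%, against 24.9% of all genes). The member higher at an unadjusted p was Ccnb2, cyclin B2, a partner of CDK1 (ENSMUSG00000032218, chromosome 9, 70407692 to 70421547). In CPM (counts scaled to library size and composition), Sham replicates 1 and 2 were at 0.708 and 1.06 and MI replicates 1 and 2 at 3.57 and 1.72. Its groups did not overlap, and the log2 difference was 1.58 ± 0.52 (SE; edgeR adjusted p = 0.374), or 0.96 without MI replicate 1. Cyclin B1, encoded by Ccnb1, showed the largest difference of the members in the fit to all libraries, with 0.409 and 0.832 CPM in Sham hearts and 3.02 and 1.10 in MI hearts (log2 difference 1.73 ± 0.69). Without MI replicate 1 it was 0.82, below the values of E2f1 (1.08) and Ccnb2 without that library. Its lowest value rests on 26 counts, for which counting error alone allows 0.158 to 0.865 CPM (exact Poisson 95% interval at 4 counts a fragment). The value of Ccnb1 is uncertain, since 4 genes elsewhere with transcripts at least 95% identical over 200 bases or more had 28.1% as many counts. Mki67, which encodes the Ki-67 protein used as a marker of cycling cells, was at 4.55 and 9.32 CPM in Sham hearts and at 19.1 and 10.2 in MI hearts. Its MI libraries were both above the Sham libraries, MI replicate 2 by a small margin, and the log2 difference was 1.08 ± 0.47 (0.56 without MI replicate 1). Cenpe, a kinetochore motor, was at 0.598 and 0.770 CPM in Sham hearts and at 2.03 and 1.16 in MI hearts, again without overlap (log2 difference 1.22 ± 0.49, and 0.77 without MI replicate 1).

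For other central mitotic genes the groups overlapped, because MI replicate 2 lay at or under the level of Sham replicate 2. Cdk1, the kinase that drives entry into mitosis, was at 1.21 and 2.59 CPM in Sham hearts and at 5.87 and 2.14 in MI hearts. Ccna2, cyclin A2, was at 2.09 and 3.68 CPM in Sham hearts and at 7.10 and 3.24 in MI hearts. Without MI replicate 1 the log2 differences of Cdk1 and Ccna2, 1.08 ± 0.64 and 0.84 ± 0.50 with all libraries, were 0.18 and 0.17. The same order held for Top2a, the topoisomerase that untangles sister chromatids, with 3.71, 6.44, 13.4 and 4.79 CPM in Sham replicates 1 and 2 and MI replicates 1 and 2. Cdc20, an activator of the anaphase-promoting complex, was at 1.86 and 2.3 CPM in Sham hearts and at 4.95 and 1.68 in MI hearts, so that the lowest and the highest value were both from MI. Foxm1, a transcription factor of the mitotic wave, showed the widest gap between MI libraries, at 5.07 and 0.838 CPM, against 1.97 and 2.94 in Sham. Cenpa stood apart from this pattern, with 19.0 and 16.2 CPM in Sham hearts and 18.9 and 19.3 in MI hearts (log2 difference 0.12 ± 0.15). The remaining 10 mitosis genes, which are the kinases Plk1, Aurka and Aurkb, the checkpoint genes Bub1 and Bub1b, the survivin gene Birc5, Cenpf and the kinesins Kif11, Kif20a and Kif23, had differences of 0.05 to 1.01. Kif20a shares 29.3% of its exonic bases with Cdc23 on the opposite strand, and the sources used here do not say whether the counting used strand.

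The gap between the MI libraries was widest for the mitosis genes. MI replicate 1 exceeded MI replicate 2 for 19 of 20 mitosis genes, with a median log2 ratio of 1.14, but the medians were 0.13 for replication, 0.09 for G1/S and 0.00 over all genes. MI replicate 1 was the highest of the 4 libraries for 18 of 20 mitosis genes (90%, against 27.2% of all genes). MI replicate 2 lay above both Sham libraries for 8 of 20 (40.0%, against 34.9% of all genes). Among the Sham libraries, replicate 1 was the lower for most mitosis genes, with a median log2 ratio of -0.56, against 0.01 over all genes. The summed level of the mitosis genes was 8.36 and 11.98 FPKM in Sham and 25.9 and 11.7 in MI. Without MI replicate 1 the mitosis median was 0.16. The sums of several marker lists were also highest in MI replicate 1. This held for the 9 lung markers (values above) and the 10 macrophage markers (219 FPKM, against 104, 123 and 130 in Sham replicates 1 and 2 and MI replicate 2). It also held for the 10 fibroblast markers (500, against 83.2, 126 and 291, with Cthrc1 at 0 in Sham replicate 2). The 8 endothelial markers summed to 361 FPKM in MI replicate 1, against 234, 266 and 311, and the 7 pericyte and smooth muscle markers to 289 FPKM, against 165, 200.2 and 222. Single markers could differ from their sum, with Mrc1 highest in Sham replicate 1, Hopx, Vwf and Myh11 in Sham replicate 2 and Pdgfra in MI replicate 2. Apart from Cthrc1, no marker of the macrophage, fibroblast, endothelial or pericyte and smooth muscle lists was at 0 in any library. The part of these lists in the result was not tested.

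**Figure D3:**
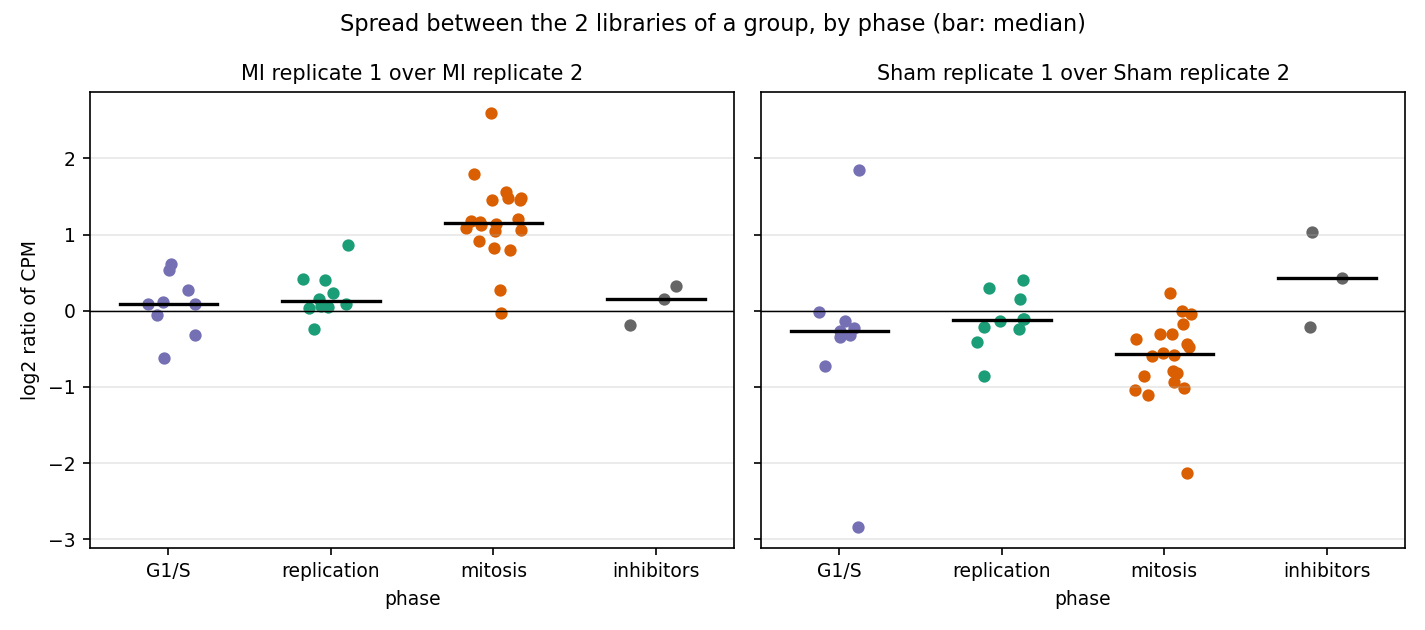
Log2 ratio of CPM between the libraries of 1 group (y axis), MI at left and Sham at right, for the cell cycle genes by phase (x axis). Points are genes and bars are medians. The mitosis genes lie highest in the MI panel, with a median of 1.14, while those of replication and G1/S have medians of 0.13 and 0.09.

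Genes of DNA replication went in both directions, and 3 of 10 were higher in MI at an unadjusted p under 0.05, against 7.12% of all genes. Mcm6, a subunit of the replicative helicase (ENSMUSG00000026355, chromosome 1, 128331590 to 128359664), was at 7.61 and 8.21 CPM in Sham hearts and at 13.2 and 11.8 in MI hearts. The libraries of each group were close, and the log2 difference of 0.66 ± 0.17 (edgeR adjusted p = 0.329) was 0.59 without MI replicate 1. Mcm7, another subunit of the same ring, was at 8.76 and 6.62 CPM in Sham hearts and at 11.5 and 11.1 in MI hearts (0.55 ± 0.21; edgeR adjusted p = 0.428). It was 0.36 without Sham replicate 2. Rrm2, the regulated subunit of the ribonucleotide reductase that makes DNA precursors (ENSMUSG00000020649, chromosome 12, 24708241 to 24714146), was at 2.63 and 2.90 CPM in Sham hearts and at 6.10 and 4.6 in MI hearts. Its log2 difference was 0.95 ± 0.27 (edgeR adjusted p = 0.344), and 0.74 without MI replicate 1. For these 3 genes the groups did not overlap, and both MI libraries shared in the difference.

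The other helicase subunits had values nearer 0, and the differences between subunits were not tested. Mcm2 was at 4.17 and 7.56 CPM in Sham hearts and at 7.23 and 6.77 in MI hearts, so that Sham replicate 1 alone was low. Mcm3, Mcm4 and Mcm5 had differences of -0.07 ± 0.21, -0.25 ± 0.20 and -0.05 ± 0.38, and for Mcm4 the MI values were both the lower. Pcna was at 26.9 and 28.9 CPM in Sham hearts and at 26.1 and 25.5 in MI hearts (-0.12 ± 0.13). On the FPKM scale of limma, where all genes shifted upward by a median of 0.10, Pcna, Mcm3 and Mcm5 were positive (0.10, 0.09 and 0.08). Tyms, the thymidylate synthase, was at 1.67 and 1.36 CPM in Sham hearts and at 1.89 and 2.23 in MI hearts, and Cdc45, a helicase cofactor, differed by 0.04 ± 0.33. The value of Tyms is uncertain, since 18 other genes hold transcript stretches at least 95% identical to part of its own (the longest 361 bases) and had 15453 counts in all, against 525 for Tyms.

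At the G1/S transition the clearest difference was in E2f1, the transcription factor gene (ENSMUSG00000027490, chromosome 2, 154559407 to 154569892). It was at 0.802 and 1 CPM in Sham hearts and at 2.89 and 1.9 in MI hearts, with both MI libraries above both Sham libraries. The log2 difference was 1.41 ± 0.41 (edgeR adjusted p = 0.346) and 1.08 without MI replicate 1. Counting error alone allowed 0.424 to 1.38 CPM in Sham replicate 1 and 1.33 to 2.62 in MI replicate 2, so the intervals of these libraries met. Ccne2, cyclin E2, was at 1.05 and 1.34 CPM in Sham hearts and at 2.00 and 2.09 in MI hearts (0.77 ± 0.35, edgeR adjusted p = 0.48). Ccne1 differed by -0.16 ± 0.36 and Cdk2, the kinase both cyclins bind, by 0.09 ± 0.27.

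The D-type cyclins, which link growth signals to the cycle, had differences of both signs, though those between the cyclins were not tested. Ccnd2 was at 45.0 and 74.6 CPM in Sham hearts and at 77.4 and 96.4 in MI hearts, without overlap but with Sham replicate 2 close to MI replicate 1 (log2 difference 0.54 ± 0.28, and 0.22 without Sham replicate 1). Ccnd1 was at 45.3 and 49.9 CPM in Sham hearts and at 55.7 and 38.3 in MI hearts, so the MI libraries enclosed the Sham libraries (log2 difference -0.02 ± 0.21, and 0.16 in limma). Ccnd1 shares 23.4% of its exonic bases with a gene on the opposite strand. Ccnd3 was at 36.0 and 9.97 CPM in Sham hearts and at 12.3 and 11.6 in MI hearts. Its negative difference of -0.94 ± 0.60 came from Sham replicate 1 and was 0.27 without it. Of the summed FPKM of the 3 cyclins, Ccnd2 made up 25.8% and 40.4% in Sham and 38.4% and 52.0% in MI, and Ccnd3 22.1%, 5.74%, 6.55% and 6.68% in the same order. Of their kinase partners, Cdk4 was at 28.8 and 29.3 CPM in Sham hearts and at 31.5 and 26.2 in MI hearts. Cdk6 had 1.84 CPM in Sham replicate 1 against 13.2 in Sham replicate 2 and 13.7 and 12.6 in MI, so that its difference of 0.80 ± 0.86 was -0.01 without Sham replicate 1 and 2.83 without Sham replicate 2. Both Ccnd3 and Cdk6 thus set Sham replicate 1 apart from the other 3 libraries, in opposite directions.

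The 3 inhibitors had differences of both signs. Cdkn1a (ENSMUSG00000023067, chromosome 17, 29090976 to 29100727), a p53 target that holds cells in G1, was at 190 and 92.2 CPM in Sham hearts and at 68.5 and 78.2 in MI hearts. The MI values were both below the lower Sham value, and the log2 difference was -0.94 ± 0.36 (edgeR adjusted p = 0.428). Without Sham replicate 1 it was -0.33, and the unadjusted p was above 0.05 in both limma fits, with the replicate block, without mitochondrial transcripts and under both other filters. In DESeq2 the unadjusted p was lower than in edgeR (0.00764 against 0.0484), but the DESeq2 adjusted p was 0.12. Sham replicate 1 was also the library with the most erythroid and neutrophil transcripts. Its atrial sum was the lowest (158 FPKM), but Nppa alone made up 151.42 FPKM of it. The part of these transcripts in the Cdkn1a difference was not tested. Cdkn1b, encoding p27, which is high in resting cells, was at 22.1 and 16.4 CPM in Sham hearts and at 28.5 and 25.5 in MI hearts. The groups did not overlap (0.49 ± 0.20; edgeR adjusted p = 0.441), and the difference was 0.29 without Sham replicate 2. Cdkn2c, encoding the CDK4 and CDK6 inhibitor p18, was at 6.46 and 7.49 CPM in Sham hearts and at 9.12 and 7.30 in MI hearts, with overlap.

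**Figure D4:**
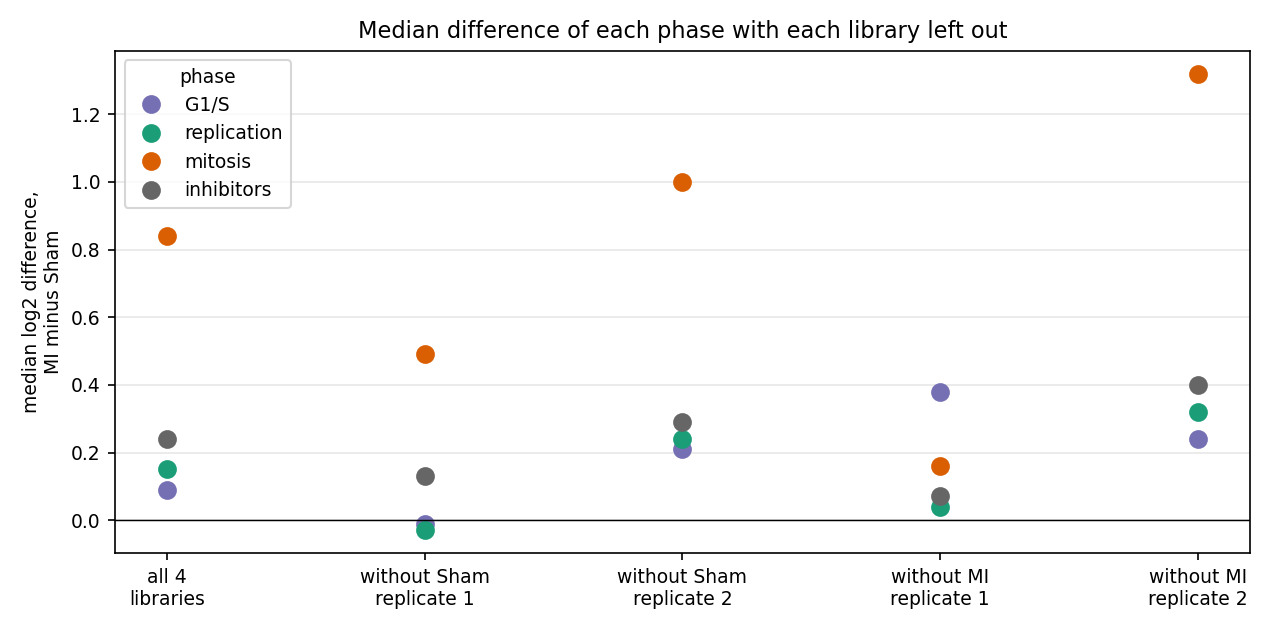
Median log2 difference between MI and Sham hearts (y axis) over the genes of each phase, with all 4 libraries and with each library left out in turn (x axis). The mitosis median ranges from 0.16 without MI replicate 1 to 1.32 without MI replicate 2, while the other phases stay between -0.03 and 0.40.

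A further 129 genes of the same steps, of which 128 were tested, gave similar medians by phase with all 4 libraries. Of 48 other mitosis genes 46 had positive differences (median 0.94), and 12 were higher and 0 lower at an unadjusted p (against 7.12% and 4.51% of all genes). Of these 48, 0 passed an adjusted p in edgeR and 1, Cdc25b, in DESeq2, where 2.58% of all genes were called higher. The 2 groups were separate, with MI the higher, for 29 of them (60.4%, against 24.9% of all genes), and MI replicate 1 was the highest library for 44 (91.7%, against 27.2%). Cdc25b, a phosphatase that activates CDK1, was at 3.44 and 3.37 CPM in Sham hearts and at 8.39 and 6.13 in MI hearts (1.09 ± 0.25; edgeR adjusted p = 0.318). Smc4, a condensin subunit, was at 11.4 and 13.1 CPM in Sham hearts and at 19.8 and 18.2 in MI hearts. The securin gene Pttg1, the most abundant of these by FPKM (mean 22), differed by -0.26 ± 0.13. Without MI replicate 1 the median of these 48 genes was 0.53, against 0.16 for the mitosis members. MI replicate 2 lay above both Sham libraries for 29 of the 48 (60.4%), against 40% of the mitosis members and 34.9% of all genes. The difference thus rested less on MI replicate 1 here than among the members. With limma on log2(FPKM + 1) the median of the 48 was 0.25, on a scale that compresses low levels.

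Of 38 other replication genes (median 0.15) 1 was higher at an unadjusted p and 0 lower, against 7.12% and 4.51% of all genes. That gene was Cdc7, the kinase that fires replication origins, with 0.771 and 0.740 CPM in Sham hearts and 1.62 and 1.56 in MI hearts (1.07 ± 0.39; edgeR adjusted p = 0.411). Next by p was Gins1, a subunit of the GINS complex of the replicative helicase, which differed the other way, with Sham replicates at 1.53 and 1.93 CPM and MI replicates at 0.923 and 0.813 (-0.99 ± 0.39; edgeR adjusted p = 0.437). The most abundant of them, the licensing inhibitor gene Gmnn (mean 12.4 FPKM), differed by -0.31 ± 0.22. Of 24 other G1/S genes (median -0.01) 1 was higher and 2 lower at an unadjusted p, against the same shares of all genes. Rbl1, the retinoblastoma relative p107, was at 1.57 and 1.54 CPM in Sham hearts and at 2.89 and 3.41 in MI hearts. Ccnh, the cyclin of the CDK-activating kinase, was at 16.5 and 15.0 CPM in Sham hearts and at 11.5 and 10.5 in MI hearts, and the repressor E2f6 had 27.2 and 27.0 in Sham and 20.7 and 21.4 in MI. E2f4, the most abundant of the 24, differed by 0.07 ± 0.17.

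Other inhibitors and stress-responsive brakes on the cycle went both ways (18 tested, median 0.36). At an unadjusted p 3 were higher and 1 lower, against 7.12% and 4.51% of all genes. Plk2, a polo-like kinase induced by stress, was at 10.6 and 15.4 CPM in Sham hearts and at 34.6 and 34.1 in MI hearts (log2 difference 1.40 ± 0.22; edgeR adjusted p = 0.225), with the MI libraries close to each other. In DESeq2 2 of the 128 genes were called, against 2.58% of all genes called higher and 1.49% called lower. They were Plk2 (DESeq2 adjusted p = 3.6e-05) and Cdc25b (DESeq2 adjusted p = 0.0379). The p53 targets Zmat3 and Phlda3 were also higher, with differences of 0.73 ± 0.23 and 0.68 ± 0.26, whereas Gadd45g was lower (-0.72 ± 0.23). Ccng1, the most abundant at a mean of 124 FPKM and also a p53 target, differed by -0.35 ± 0.16. Cdkn2a, encoding p16 and p19, was the gene not tested, with 25 counts in MI replicate 1 and 0 in the other libraries.

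The promoters of these genes differ by phase in short motifs, which are shown because the mitosis genes varied together between libraries. In RefSeq promoter windows (GRCm38.p6, 250 bases before to 50 after the start), 34 of 42 members had an entry. Without one were Ccnd1, Ccnd2, Ccne2, Mcm4, Ccna2, Aurkb, Kif20a and Foxm1. Both strands were searched for a CHR, the cell cycle genes homology region (TTTGAA or TTTAAA), for the CCAAT box bound by NF-Y, and for an E2F site (TTCCCGC or TTGGCGC or TTGCCGC or TTCGCGC), with overlapping matches allowed. A CHR match stood in 15 of 16 mitosis promoters (93.8%), 4 of 10 of replication and 1 of 7 of G1/S, against 27.6% of all 32851 promoters in the table. Within 60 bases of the start it stood in 13 of the 16. A CCAAT box stood in 15 of 16 mitosis promoters and 9 of 10 replication promoters, against 37.4% of all promoters. E2F matches stood in 6 of 10 replication promoters (60.0%) and 3 of 16 mitosis promoters (18.8%), against 9.57%. Of the 43 promoters of other mitosis genes 69.8% had a CHR match and 65.1% a CCAAT box, and of the 38 of other replication genes 60.5% had an E2F match. The motifs were not particular to those phases in the wider lists. A CHR match stood in 55.6% of the 27 promoters of other G1/S genes, 28.9% of other replication genes and 21.1% of other inhibitors. A CCAAT box stood in 73.7% of the 19 promoters of other inhibitors, 52.6% of other replication genes and 40.7% of other G1/S genes. Among promoters in the same range of GC content as the mitosis promoters, a CHR match stood in 18.9%. A match is a description of the letters and shows no binding.

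**Figure D5:**
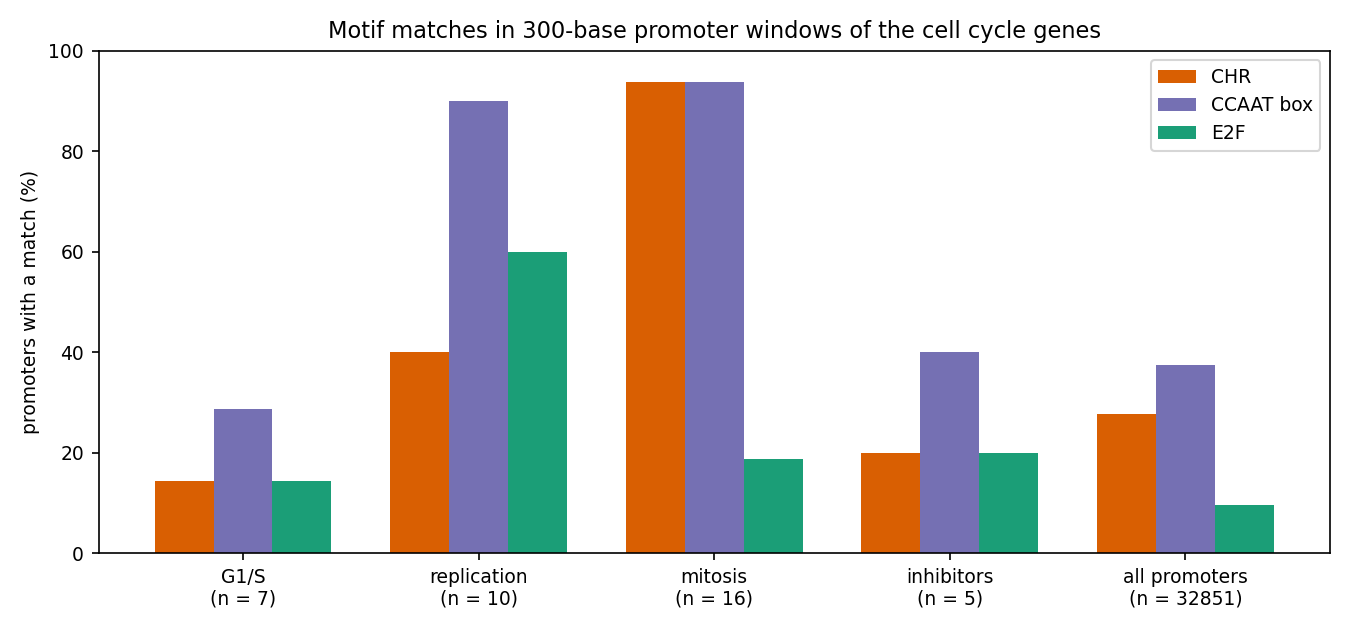
Share of promoter windows with a match (y axis, percent) for the CHR (orange), CCAAT box (purple) and E2F motif (green), by phase of the cell cycle genes and for all 32851 promoters (x axis, with the number of windows). CHR and CCAAT matches each stand in 93.8% of mitosis windows, and E2F matches in 60.0% of replication windows.

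Stretches of 120 bases before the outermost annotated start are given below, 5′ to 3′ on the gene's strand, with motif matches of either strand in capitals. Mitosis genes come first, with Ccnb2 (chr9:70421555-70421674, minus strand) carrying a row of 3 CCAAT boxes, Cdk1 (chr10:69352939-69353058, minus strand) an E2F match and a CHR between CCAAT boxes, and Kif11 (chr19:37376262-37376381, plus strand) a CCAAT box before a CHR. Mcm6 (chr1:128359706-128359825, minus strand) is given for replication, with E2F matches in overlapping pairs and CCAAT boxes. Cdkn1a (chr17:29090856-29090975, plus strand) is given as an inhibitor with no match to these motifs in the stretch.
Ccnb2: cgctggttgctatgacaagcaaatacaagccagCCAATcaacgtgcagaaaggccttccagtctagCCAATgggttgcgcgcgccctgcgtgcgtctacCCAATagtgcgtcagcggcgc
Cdk1: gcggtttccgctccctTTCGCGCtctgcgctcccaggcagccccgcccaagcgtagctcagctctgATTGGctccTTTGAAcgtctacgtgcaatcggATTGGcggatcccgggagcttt
Kif11: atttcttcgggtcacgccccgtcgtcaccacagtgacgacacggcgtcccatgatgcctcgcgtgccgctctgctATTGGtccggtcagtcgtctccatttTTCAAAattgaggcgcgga
Mcm6: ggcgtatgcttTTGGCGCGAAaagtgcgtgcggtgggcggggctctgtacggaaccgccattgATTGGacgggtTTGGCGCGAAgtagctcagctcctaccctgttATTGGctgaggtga
Cdkn1a: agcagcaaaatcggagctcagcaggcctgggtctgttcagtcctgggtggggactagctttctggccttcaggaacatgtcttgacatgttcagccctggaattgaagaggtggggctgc

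These stretches set the groups side by side with the values above. Ccnb2, Cdk1, Kif11 and Mcm6 all carry CCAAT boxes, and MI replicate 1 was the highest library for each, at 3.57, 5.87, 4.6 and 13.2 CPM. Their differences between MI and Sham nevertheless ranged from 0.13 ± 0.48 for Kif11 to 1.58 ± 0.52 for Ccnb2. Mcm6 differed by 0.66 ± 0.17, with MI replicate 2 at 11.8 CPM, near MI replicate 1. Other members with a CCAAT box in the promoter window were highest elsewhere. Mcm3 was highest in Sham replicate 1, Pcna, Mcm2 and Cenpf in Sham replicate 2, and Cenpa and Cdk2 in MI replicate 2. Birc5 had no CCAAT match and was highest in MI replicate 1. MI replicate 1 was the highest library for 69% of all members, against 27.2% of all genes. A link between motif and level was not tested.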

How the data were processed

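Poly(A) RNA of 4 heart libraries was sequenced as strand-marked paired-end libraries, per the labels' protocols. The deposited table gives each gene's position and, per library, an estimated count (whole numbers, unnormalized) and an FPKM, in which, per the file headers, the authors adjusted each count to transcript length and sequencing depth. The submitters' processing notes name StringTie 1.3.4d, HISAT2 2.0.4, UMI-tools and cutadapt 1.9, with no role or order. Genome build, annotation and the use of strand or molecular identifiers in counting: not given in the sources used here. Coordinates of 38 of the 42 members equal those of GENCODE M21 (GRCm38).

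The members and gene lists were chosen with earlier results of these data known. Groups came from sample titles. Low counts were removed by filterByExpr (minimum count 10 and minimum total 15), and libraries were scaled by TMM and tested over all genes with edgeR 4.0.16 (R 4.3.3), 2-sided quasi-likelihood, Benjamini-Hochberg at 0.05. The standard error is the log2 difference divided by the square root of F. The biological coefficient of variation was 0.368. With 2 libraries a group an exact permutation test cannot go below p = 0.33. Intervals and floors cover counting error only, since PCR copies are not independent molecules. Near-identical transcripts were sought with blastn 2.17.0. The alternatives were RLE scaling, DESeq2 1.42.0, limma 3.58.1 on log2(FPKM + 1) or + 0.1, other filters, the replicate number as a block, no mitochondrial transcripts, and each library left out. Steps were tested on simulated data. Genes named in full were all inhibitors, per phase the 3 of smallest p and 2 of highest FPKM, and 14 members fixed by name. Of the other pathway genes they were the 2 of smallest p and 1 of highest FPKM per phase. E2f6, Phlda3, Gadd45g and Cdkn2a were named after their values were seen.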

Additional observations from a re-analysis of the deposited data

How the results depend on the processing

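Of the 42 members 0 passed an adjusted p under 0.05 in any of the 12 alternatives, and 22 kept their direction in all in which they were tested. Over all genes the count called was 0 except in DESeq2 (635) and with 1 library left out (0 to 10, 10 without Sham replicate 1). Members higher at an unadjusted p numbered 4 to 7 in the alternatives that kept every library. The background moved between settings. Of 18475 genes, 1316 were higher with TMM (7.12%), 1265 with RLE scaling and 2223 (12%) in limma on log2(FPKM + 1). The narrow range of member counts is therefore not a measure of stability. The lower count of 1 (Cdkn1a) was 0 in both limma fits, with no filter on low counts, with a mean FPKM of at least 1, with the replicate block and without mitochondrial transcripts. Member counts at an unadjusted p are not given with 1 library left out, since 1 group then holds a single library. The mitosis median of 0.84 ranged from 0.16 to 1.32 over the left-out libraries and was 0.32 in limma on log2(FPKM + 1), where low levels are compressed. The replicate numbers are not stated to pair the libraries, and the differences between replicates 1 and 2 correlated at -0.0429 between the groups, across genes. With the replicate number as a block 5 members were higher and 0 lower at an unadjusted p, with no share of all genes given here to read them against. In that fit 0 genes were called, and Plk1 and Foxm1 turned to -0.02 and -0.20.

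Small differences changed sign with the scaling. The median over all genes, near 0 with TMM, shifted by 0.10 in limma with a pseudocount of 1, by 0.20 with 0.1 and by 0.14 without mitochondrial transcripts. The share of higher against lower genes at an unadjusted p was 1316 to 834 with TMM, 2223 to 336 in limma and 1967 to 431 without mitochondrial transcripts. With pseudocounts of 1 and 0.1 respectively, Ccnd1 was 0.16 and 0.18, Ccne1 0.02 and 0.04, Cdk4 0.18 and 0.20, Mcm3 0.09 and 0.13, Mcm5 0.08 and 0.12, and Pcna 0.10 and 0.10. Without mitochondrial transcripts Ccnd1 was 0.13, Cdk4 0.13, Mcm3 0.07, Mcm5 0.09 and Pcna 0.02. With a mean FPKM of at least 1, which left 18 members, Ccnd1 and Cdk4 were 0.01. With 1 library left out the ranges that crossed 0 were -0.30 to 0.24 for Ccnd1, -1.58 to 0.27 for Ccnd3, -0.24 to 0.38 for Cdk2, -0.14 to 0.13 for Cdk4, -0.01 to 2.83 for Cdk6, -0.17 to 0.25 for Cdc45, -0.11 to 0.75 for Mcm2, -0.18 to 0.05 for Mcm3 and -0.54 to 0.33 for Mcm5. Among mitosis genes they were -0.08 to 1.41 for Top2a, -0.30 to 1.26 for Cdc20, -0.58 to 0.56 for Plk1, -0.64 to 1.17 for Aurkb, -0.36 to 1.12 for Bub1, -0.07 to 0.76 for Bub1b, -0.34 to 0.58 for Cenpf, -0.59 to 0.62 for Kif11 and -1.54 to 1.06 for Foxm1. The cause of these shifts was not tested beyond the library left out. A library left alone in its group is assumed to vary like the others.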

Other observations

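The deposited table's own annotation names 123 genes of the KEGG cell cycle pathway, of which 28 are among the 42 members and 37 among the further pathway genes. Of the remaining 58 genes 54 were tested, with a median log2 difference of 0.04, against 0.00 over all genes. At an unadjusted p under 0.05 in edgeR 4 of the 54 were higher in MI and 0 lower, against 7.12% and 4.51% of all genes, so that the count of higher genes was near the background. These 4 were Tgfb3, Tgfb1, Ywhah and Anapc2, named after their values were seen. Of the 54, 0 passed an adjusted p in edgeR and 2 in DESeq2, where 2.58% of all genes were called higher and 1.49% lower. Tgfb3, a growth factor gene of the TGF-beta family, was at 9.94 and 14.8 CPM in Sham hearts and at 42.5 and 31.6 in MI hearts (1.58 ± 0.27). Anapc2, a subunit of the ubiquitin ligase that starts anaphase, was at 33.7 and 30.6 CPM in Sham hearts and at 44.0 and 41.1 in MI hearts (0.40 ± 0.13). Ywhah, a 14-3-3 protein gene, was at 62.9 and 66.9 CPM in Sham hearts and at 87.2 and 83.3 in MI hearts. MI replicate 1 was the highest library for 29.6% of these 54 genes, against 91.7% of the 48 other mitosis genes and 27.2% of all genes tested.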
